A study of Rattus norvegicus with 16 samples.

Results

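The cytochrome P450 genes of the rat were followed in the stomach and in the middle part of the intestine of suckling rats. A gene was taken as a member when its symbol on the array began with Cyp followed by a family number, a subfamily letter and a gene number, and the sterol demethylase Cyp51 was left out. This gave 79 genes of the 19776 genes with a symbol. The 79 genes were covered by 96 probes of 60 bases, 64 of them by a single probe, and each gene was read from its probe with the highest mean Cy5 signal. The study used suckling Wistar rats, born to Wistar Han parents by the methods, that received saline solution (group C) or obestatin, a peptide cut from the precursor of ghrelin, at 250 nmol per kg of body weight (group OH). Both were given 2 times a day between postnatal days 14 and 21. Gene expression was measured on 16 microarrays with 2 colours. Each tissue of each treatment had 4 arrays, with RNA of the tissue in Cy5. Every array carried in Cy3 the same reference pool, which the labels describe as RNA of the stomach and the middle part of the intestine, and the dyes were not swapped. All values below are log2 ratios of Cy5 to Cy3 unless another scale is named, so that a ratio of 0 is the level of the pool, and ratios of different probes were not compared as levels.

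Cytochromes P450 are haem proteins that insert an oxygen atom into lipophilic molecules, with electrons handed over by cytochrome P450 reductase in the endoplasmic reticulum and by the adrenodoxin system in mitochondria. Enzymes of families CYP1, CYP2 and CYP3 oxidise drugs and dietary compounds and are best known from the liver, but the lining of the gut holds its own set. Family CYP4 and the CYP2J enzymes act on fatty acids and eicosanoids, and other families make steroid hormones and bile acids or activate and clear vitamin D and retinoic acid.

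The 4 groups were measured on 4 slides, 1 slide for each group, and the C slides were scanned on another day than the OH slides, so the effect of the slide or of the scan day cannot be told apart from that of the group. The median raw Cy3 signal of the shared pool was 188.2 to 195.3 scanner units on the C slides and 340.8 to 399.2 on the OH slides. The tissue labels were borne out by markers. Of 11 tested genes of the stomach mucosa 10 were higher in C stomach, where 22.7% of all probes were. Of 13 enterocyte genes 11 were higher in C middle intestine, where 22.3% of all probes were. The enterocyte gene Cdx1 went the other way, higher in C stomach by 0.37 (adjusted p = 0.023 by limma). One array did not resemble the rest of its group. The mean ratio of 15 striated muscle genes was 3.41 to 4.12 on 3 C stomach arrays and -0.88 on C stomach replicate 2, and that array stood apart for 5.5% of the probes, against 0.515% to 1.99% on the other arrays. Results that rest on it are given with and without it. By the methods, 4 rats of each treatment were drawn at random for the arrays and both tissues were taken. Each treatment had 4 litters of its own by the methods, and the pups stayed with their mothers. C and OH rats thus shared no litter, and the effect of the litter cannot be told apart from that of treatment. The labels give neither the litters of these rats nor whether equal numbers in stomach and intestine are the same rat. A p-value therefore measures the spread between these samples only. In tissue RNA, fewer cells of a type and less RNA per cell cannot be told apart.

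P450 genes were detected less often than the array as a whole. In C stomach 44 of the 79 genes had a tissue signal well above background on every array, which is 55.7%, against 70.7% of all genes with a symbol. The count was 38 genes or 48.1% in OH stomach, against 70.3% of all genes. It was 34 genes or 43% in C middle intestine and 36 genes or 45.6% in OH middle intestine, against 65.6% and 67.4% of all genes. No test was made of these shares. Over the 16 arrays, 29 P450 genes or 36.7% were above background on every array, against 63.1% of all genes, and 12 or 15.2% on none, against 14.5%. The 12 genes that were never above background in the tissue channel included Cyp1a2, Cyp2c12 and Cyp2c13, xenobiotic enzymes of the rat liver, Cyp7a1, the rate-limiting enzyme of bile acid synthesis, and Cyp24a1, which degrades vitamin D hormone.

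**Figure D1:**
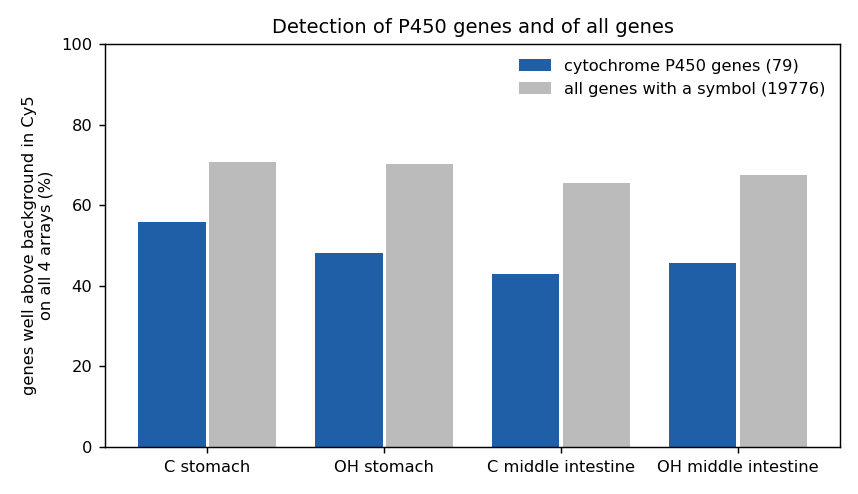
Share of genes (%) whose Cy5 signal was well above background on each of the 4 arrays of a group, for the 79 cytochrome P450 genes (blue bars) and for all 19776 genes with a symbol (grey bars). The blue bars run from 43% in C middle intestine to 55.7% in C stomach and lie under the grey bars in each group.

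Of the 79 genes, 47 entered the tests, which needed a Cy5 signal above background on the 4 arrays of any 1 group and 3 values or more in each group. A probe that entered only through the tissue where it is high was favoured to differ between the tissues, so the counts that follow describe these 47 genes and are set beside the same counts over all 21174 probes. In rats given saline, 27 of the 47 differed between stomach and middle intestine by limma at an adjusted p under 0.05, which is 57.4%, and 44.9% of all probes did. Higher in C stomach were 16 genes or 34% (22.7% of all probes), and higher in C middle intestine were 11 genes or 23.4% (22.3% of all probes). The stomach count stayed at 15 to 17 when 1 array was left out, but was 12 with normexp background correction and 14 by Tukey HSD. The intestinal count fell to 6 without C stomach replicate 1, to 7 without C middle intestine replicate 3 and to 6 by Tukey HSD. With normexp it stayed at 11. The median size of the difference, regardless of sign, was 1.28 over the 47 P450 genes and 0.44 over all probes. The arrays of the 2 tissues did not overlap for 23 of the 47 genes, and for 43.7% of all probes.

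Promoters are shown to let a reader see what precedes the genes with the largest tissue differences. Those of the 3 genes that led in each direction, among those with a promoter in the RefSeq table, are shown as the 250 bases before the annotated start on the gene's own strand in GRCr8, in lower case, with TATAAA, the core GCGTG bound by the aryl hydrocarbon receptor, and the nuclear receptor motif AGGTCA in capitals, where a match on the opposite strand shows as the reverse complement.
Cyp2f4, chr1:91543518-91543767, plus strand: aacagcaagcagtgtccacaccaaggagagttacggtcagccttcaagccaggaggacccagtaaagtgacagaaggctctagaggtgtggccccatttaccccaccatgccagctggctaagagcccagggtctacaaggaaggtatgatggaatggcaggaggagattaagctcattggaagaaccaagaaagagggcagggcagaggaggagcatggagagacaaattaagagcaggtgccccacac
Cyp2c23, chr1:252863068-252863317, minus strand: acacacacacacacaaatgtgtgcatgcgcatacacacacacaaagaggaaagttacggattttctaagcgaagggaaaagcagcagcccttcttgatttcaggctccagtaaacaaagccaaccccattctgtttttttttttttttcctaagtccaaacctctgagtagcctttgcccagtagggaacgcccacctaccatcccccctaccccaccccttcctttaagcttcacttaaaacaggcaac
Cyp2s1, chr1:90453074-90453323, minus strand: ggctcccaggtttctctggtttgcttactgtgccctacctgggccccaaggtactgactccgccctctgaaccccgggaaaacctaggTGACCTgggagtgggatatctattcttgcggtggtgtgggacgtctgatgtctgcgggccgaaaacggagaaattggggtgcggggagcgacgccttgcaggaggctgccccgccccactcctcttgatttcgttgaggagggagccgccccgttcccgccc
Cyp3a62, chr12:21511513-21511762, plus strand: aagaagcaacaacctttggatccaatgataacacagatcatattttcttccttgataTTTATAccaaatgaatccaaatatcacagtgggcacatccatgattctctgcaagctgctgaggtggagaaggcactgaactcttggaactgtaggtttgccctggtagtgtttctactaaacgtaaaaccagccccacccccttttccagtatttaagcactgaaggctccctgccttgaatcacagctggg
Cyp4f5, chr7:12194387-12194636, plus strand: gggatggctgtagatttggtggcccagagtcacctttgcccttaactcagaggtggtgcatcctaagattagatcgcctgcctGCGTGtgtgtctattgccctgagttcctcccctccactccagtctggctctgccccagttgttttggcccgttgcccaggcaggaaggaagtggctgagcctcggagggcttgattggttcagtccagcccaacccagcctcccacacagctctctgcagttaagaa
Cyp1b1, chr6:21094315-21094564, plus strand: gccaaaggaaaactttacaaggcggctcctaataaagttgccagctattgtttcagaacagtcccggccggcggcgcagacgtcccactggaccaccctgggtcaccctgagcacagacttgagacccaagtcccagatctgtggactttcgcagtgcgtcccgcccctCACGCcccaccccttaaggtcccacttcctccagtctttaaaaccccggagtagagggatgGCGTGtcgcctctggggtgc

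The 3 stomach genes held no TATAAA and no GCGTG in these windows, and Cyp2s1 alone held AGGTCA, 162 bases before the start. Cyp1b1, which encodes an aryl hydrocarbon receptor target, held GCGTG at 81 and at 20 bases before the start, and Cyp4f5 held it at 167 bases. Cyp3a62 held TATAAA on the other strand at 193 bases. Of 59 P450 genes with a promoter in the table, 18 or 30.5% held TATAAA, against 12.9% of all 33469 promoters. AGGTCA was held by 20 of the 59 or 33.9%, against 14.1% of all promoters, and GCGTG by 16 or 27.1%, against 25.9%. These matches are letters in a window and not sites of binding, and no test was made.

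Cyp2f4, of a subfamily known from the airways where it oxidises small aromatic compounds, had the largest difference between the tissues. Its ratios were 1.89, -1.64, 1.89 and 1.56 in C stomach and -4.64, -5.03, -4.61 and -5.11 in C middle intestine. The difference was 5.77 ± 0.68 (SE, n = 4 arrays per group), that is 54.6-fold, with adjusted p = 1e-05 by limma. C stomach replicate 2 lay far below its group, and without it the difference was 6.63. In OH stomach the ratios were -3.29, -1.37, -1.96 and -0.54 and in OH middle intestine -5.16, -4.87, -4.47 and -4.5, again without overlap, with a difference of 2.96 ± 0.68 (adjusted p = 0.0033).

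Cyp2c23, an epoxygenase of arachidonic acid, was 15-fold higher in C stomach. It read -0.61, -0.48, -0.65 and -1.41 in C stomach and -4.39, -4.52, -4.55 and -5.32 in C middle intestine, a difference of 3.91 ± 0.34 with adjusted p = 4.2e-07 by limma. The OH arrays gave 3.58 ± 0.34, with -1.15, -1.05, 0.16 and -1.74 in stomach and -4.4, -4.8, -4.25 and -4.66 in middle intestine. Cyp2s1, an enzyme of epithelia outside the liver, had the smallest spread of these genes. Its ratios were 0.94, 0.86, 1.1 and 1.18 in C stomach and -1.75, -2.27, -2.08 and -2.29 in C middle intestine, and the difference of 3.12 ± 0.22 was the most certain among the P450 genes (adjusted p = 5.5e-08 by limma). Its other 2 kept probes gave 2.71 and 2.75, so the 3 probes of this gene differed little.

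Cyp2d1 and Cyp2d5, drug oxidases of the CYP2D subfamily, were higher in C stomach by 2.85 ± 0.42 and 2.92 ± 0.44 (adjusted p = 7.7e-05 and 0.00011 by limma), and their values ran side by side on every array. Cyp2d1 read 0.14, -0.62, -0.09 and -0.46 in C stomach, and Cyp2d5 read 0.11, -0.59, -0.19 and -0.53. Their 60-base probes share 56 of 58 overlapping bases, as 30 bases of each show, with the bases that differ in capitals.
Cyp2d1: gctgagccacgtttaataaaccagtcttTT
Cyp2d5: gctgagccacgtttaataaaccagtcttGA

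The 2 probes may therefore read the same RNA, and the values of Cyp2d1 and Cyp2d5 are best read as 1 measurement. All counts of genes above and below hold them as 2 genes. Among the 3081 pairs of P450 probes only 2 other pairs shared 40 bases or more, Cyp2a1 with Cyp2a2 (44 of 50) and Cyp3a18 with Cyp3a62 (41 of 52), and every further pair shared 32 or fewer. The other tested genes of the subfamily went the other way. Cyp2d4, the CYP2D form of the rat brain, was lower in C stomach by 1.61 ± 0.55 on the log2 scale (adjusted p = 0.027), and Cyp2d2, a debrisoquine oxidase, was lower by 0.88 ± 0.32 (adjusted p = 0.039). The Cyp2d4 call in C rats was lost without C stomach replicate 1 (-1.59, adjusted p = 0.054), C stomach replicate 2 (-1.45, adjusted p = 0.068) or C middle intestine replicate 3 (-1.25, adjusted p = 0.084).

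Among the xenobiotic genes, Cyp3a62 had the largest difference toward the middle intestine, and it was the 1 gene of 3 tested CYP3A genes that was called in C rats. Cyp3a62, a CYP3A form of the intestine, read 1.7, 1.33, 2.8 and 1.92 in C middle intestine and -0.82, -3.45, -0.68 and -0.42 in C stomach. It was 9.71-fold higher in the intestine, by 3.28 on the log2 scale (SE 0.70, adjusted p = 0.0017 by limma), and 24.4-fold higher in OH rats (adjusted p = 0.00012). C stomach replicate 2 was again the low array, and without it the log2 difference, stomach minus intestine, was -2.58 (adjusted p = 0.0038). Cyp3a18 read 2.89, 2.04, 3.71 and 1.46 in C middle intestine and 0.79, -0.71, 0.56 and 1.38 in C stomach. Its groups did not overlap, the difference of -2.02 ± 0.82 missed the threshold (adjusted p = 0.058), and the OH contrast of -3.2 ± 0.82 passed it (adjusted p = 0.0065). Without C stomach replicate 2 the C difference of Cyp3a18 was -1.61 (adjusted p = 0.15). A further form, Cyp3a9, read 2.93, 2.85 and 2.96 on 3 C stomach arrays, -0.52 on replicate 2, and 1.12 to 2.27 in C middle intestine, with adjusted p = 0.57 for the tissue difference and 0.052 without replicate 2. Its difference, stomach minus intestine, was 0.55 ± 0.74 in C rats and -1.72 ± 0.74 in OH rats (adjusted p = 0.079 for OH).

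Cyp2c79 was 5.94-fold higher in C middle intestine, at 2.1, 3.12, 3.84 and 3.28 against 0.87, -0.74, 0.21 and 1.73 in C stomach (difference -2.57 ± 0.63, adjusted p = 0.0042 by limma). Cyp1b1, which oxidises steroids and polycyclic hydrocarbons, read -0.08, 0.09, -0.87 and 0.38 in C middle intestine and -2.21, -3.33, -2.18 and -2.58 in C stomach. The difference was -2.45 ± 0.44 (adjusted p = 0.00042). Cyp1a1, the classic gene induced through the aryl hydrocarbon receptor, was chosen for mention after its values were seen and had no test, because no group had it above background on all 4 arrays. It was above background on none of the 8 stomach arrays, on 2 of 4 arrays of C middle intestine and on 3 of 4 of OH middle intestine. Its intestinal ratios were 1.73, 4.69, 4.48 and 0.43 in C and 3.31, 6.98, 4.68 and 0.6 in OH rats, so single rats of a group differed by more than the groups. The pool signal of Cyp1a1 was above background on 0 arrays, so these ratios rest on a Cy3 signal near background. The mean C intestine signal was at least 4.09-fold above that of C stomach. For OH intestine and OH stomach it was at least 9.3-fold. Such a bound takes the mean Cy5 signal over all 4 arrays of the brighter group, also those not above background. It is set against the lowest signal well above background on each array of the dimmer group, or the gene's own signal where higher. The bound therefore holds for the group mean and not for a single rat.

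**Figure D2:**
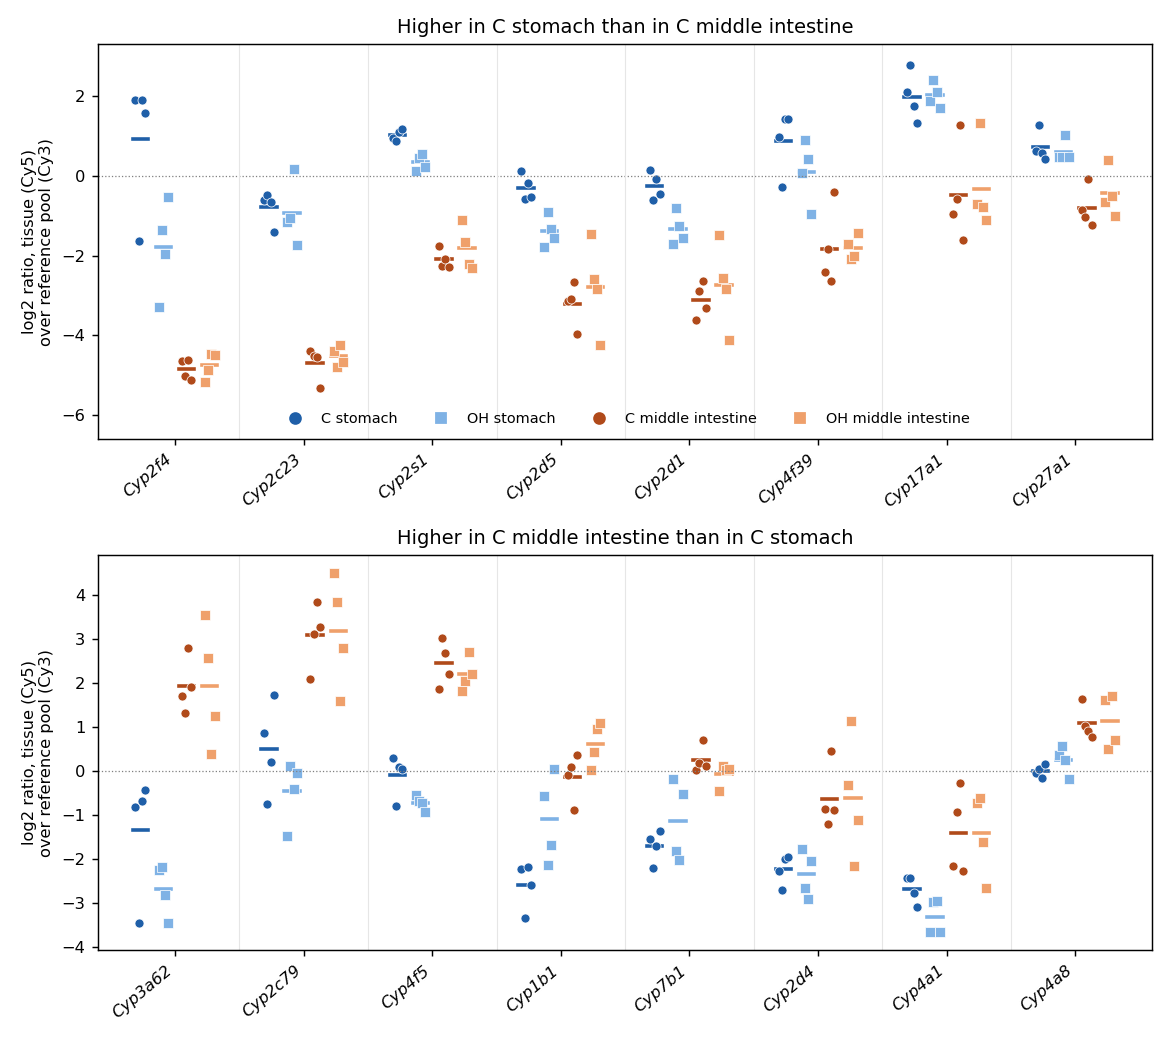
Log2 ratio of tissue (Cy5) to reference pool (Cy3) on each array for the 8 P450 genes with the largest difference in each direction between C stomach and C middle intestine, of those with adjusted p under 0.05 and no overlap of the 4 and 4 arrays. Points are single arrays and horizontal marks are group means, and the blue stomach points of Cyp2c23 lie between -1.74 and 0.16, above its orange intestine points between -5.32 and -4.25, and those of Cyp4f5 lie between -0.92 and 0.31, below its intestine points between 1.83 and 3.02.

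Xenobiotic genes with smaller differences completed the group of 40, of which 21 were tested, 8 were higher in C stomach and 5 in C middle intestine, where 22.7% and 22.3% of all probes were. Cyp2w1, an enzyme first known from fetal gut and colon tumours, was higher in C stomach by 1.41 ± 0.28 (adjusted p = 0.001 by limma). Cyp2t1 was higher by 1 ± 0.27 (adjusted p = 0.0078). Cyp2b12, a form of skin glands, was not above background on any intestinal array and its C stomach signal, through which it entered the test, was at least 2.16-fold higher (adjusted p = 0.017). Cyp2e1, the ethanol-oxidising enzyme, differed by 0.3 ± 0.23 (adjusted p = 0.3), and both normexp background correction and scaling between arrays turned the sign of this difference.

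Among the 20 genes of fatty acid and eicosanoid oxidation, 15 were tested, 4 were higher in C stomach and 5 in C middle intestine, beside 22.7% and 22.3% of all probes. Cyp4f39, a relative of the ω-hydroxylase that builds the lipids of the skin barrier, was measured in the stomach only and entered the test through it. It read 0.96, -0.29, 1.42 and 1.41 in C stomach and was not well above background on any intestinal array, so the C stomach signal was at least 4.95-fold higher (adjusted p = 0.00054 by limma) and that of OH stomach, measured on 3 of 4 arrays, at least 2.7-fold higher (adjusted p = 0.0074). These sizes depend on the background correction, since the C difference of 2.71 became 0.61 with normexp (adjusted p = 0.0025 by limma). Cyp4f5, a hydroxylase of leukotrienes, went the other way, at 1.88, 3.02, 2.69 and 2.22 in C middle intestine against 0.31, -0.79, 0.09 and 0.06 in C stomach. The difference of -2.54 ± 0.27 had adjusted p = 3.4e-06, and the OH arrays gave -2.91 ± 0.27. The fatty acid ω-hydroxylase Cyp4a1, a target of the lipid receptor PPARα, was lower in C stomach by 1.28 ± 0.47 on the log2 scale (adjusted p = 0.04), and Cyp4a8 by 1.09 ± 0.27 (adjusted p = 0.0044). The Cyp4a1 groups lay close, at -0.26 to -2.26 in the intestine and -2.42 to -3.09 in the stomach, and the call was lost without any of 6 of the 8 arrays, C stomach replicates 1 to 4 and C middle intestine replicates 2 and 3, with adjusted p from 0.051 to 0.12. Cyp2j10, of the epoxygenase subfamily CYP2J, entered the test through stomach alone. Cyp2j10 was higher in C stomach by 1.05 ± 0.32 (adjusted p = 0.016) and in OH stomach by 1.49 ± 0.32 (adjusted p = 0.0022). Its OH stomach signal was at least 2.84-fold above that of OH middle intestine. It was above background on 1 of 8 intestinal arrays, so both differences rest on intestinal signals near background. Cyp4f18, another CYP4F gene, was lower in C stomach by 1.42 on the log2 scale (adjusted p = 0.037), and without C stomach replicate 2 its difference was -1.11 (adjusted p = 0.11).

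Of 6 genes of steroid hormone synthesis 5 were tested, and 1 of them was called, higher in stomach in both treatments, as were 15.5% of all probes. The called gene was Cyp17a1, the 17α-hydroxylase of androgen and cortisol synthesis, which was above background on all 16 arrays. It read 2.09, 2.77, 1.75 and 1.31 in C stomach and -0.97, -0.59, 1.28 and -1.61 in C middle intestine, a difference of 2.45 ± 0.58 with adjusted p = 0.0036 by limma, and 2.34 ± 0.58 in OH rats (adjusted p = 0.0056). Cyp11a1, which cleaves the side chain of cholesterol, was above background on all C stomach arrays at 1.64, 3.24, 1.44 and 1.05 and on 1 of 4 arrays of C middle intestine, with a difference of 1.44 ± 0.57 that missed the threshold (adjusted p = 0.051) and was 0.98 without C stomach replicate 2 (adjusted p = 0.16). The other tested genes of hormone synthesis did not pass in either treatment, with C differences of -0.78 for Cyp11b2, -0.23 for Cyp11b3 and -0.2 for Cyp21a1, the aldosterone synthase, an 11β-hydroxylase form and the 21-hydroxylase. Of 4 markers of steroid-forming cells, Star, Hsd3b1 and Mc2r were not well above background on any array and Nr5a1 was on 2 of 16. The part of such cells in the Cyp17a1 ratios was not tested.

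Of 6 genes of bile acid and oxysterol metabolism 2 were tested. Both were called in C rats, where 44.9% of all probes were, and they differed in opposite directions. Cyp27a1, the mitochondrial sterol 27-hydroxylase, read 0.63, 1.28, 0.58 and 0.43 in C stomach and -0.86, -1.04, -0.08 and -1.24 in C middle intestine (difference 1.54 ± 0.30, adjusted p = 0.00089 by limma). Cyp7b1, the oxysterol 7α-hydroxylase, read -1.54, -2.19, -1.69 and -1.36 in C stomach and 0.04, 0.18, 0.7 and 0.11 in C middle intestine (difference -1.96 ± 0.35, adjusted p = 0.0004). Neither gene overlapped between the tissues in C rats, and both were called in OH rats as well, by 1.05 ± 0.30 and -1.07 ± 0.35. When 1 array was left out, the OH difference of Cyp7b1 ran from -1.39 to -0.78, with adjusted p up to 0.084 by limma.

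Of 3 vitamin D genes 2 were tested, and both were called higher in C stomach, where 22.7% of all probes were. Cyp2r1 entered the test through stomach alone. Cyp27b1, the 1α-hydroxylase that forms the active hormone, read 2.01, 3.91, 1.46 and 0.95 in C stomach and 1.29, 3.91, 3.24 and 2.44 in OH stomach, against 0.19 to 0.82 in C and -0.09 to 0.88 in OH middle intestine. The difference was 1.52 ± 0.58 in C rats (adjusted p = 0.045 by limma) and 2.4 ± 0.58 in OH rats (adjusted p = 0.0044). Without C stomach replicate 2, the highest array here, the C difference was 0.91 with adjusted p = 0.14. The call was also lost without C stomach replicate 1 or any of the 4 intestinal arrays, at differences of 1.39 to 1.6. Cyp2r1, a 25-hydroxylase, was higher in C stomach by 1.48 ± 0.40 (adjusted p = 0.0078). In OH rats the difference was 1.04 ± 0.40 (adjusted p = 0.053). It was above background on 1 of 8 intestinal arrays, so both differences rest on intestinal signals near background. The vitamin D receptor gene Vdr had the opposite direction, at a difference of -1.9 in C rats (adjusted p = 0.00017). Cyp26b1, which clears retinoic acid, was the 1 tested gene of its role and differed by -0.33 ± 0.48 (adjusted p = 0.6), a sign that turned without C stomach replicate 2 (0.07), and Cyp20a1, an enzyme without an assigned substrate, differed by 0.08 in C rats and by 0.31 in OH rats (adjusted p = 0.53 and 0.027).

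The tissue contrast in OH rats, which shares no array with that in C rats but shares the reference pool and the pooled estimate of the spread, called 26 of the 47 genes or 55.3%, against 38.2% of all probes. Higher in OH stomach were 14 genes or 29.8% (19.2% of all probes), and higher in OH middle intestine were 12 genes or 25.5% (19.1% of all probes). After scaling the arrays to equal spread, 16 genes were called in place of 26, 11 higher in stomach and 5 higher in middle intestine. Called in both treatments in the same direction were 22 genes or 46.8%, against 31.1% of all probes. They were 13 genes higher in stomach (27.7%, against 15.5% of all probes) and 9 higher in middle intestine (19.1%, against 15.6%). No gene was called in opposite directions, 5 were called in C rats alone and 4 in OH rats alone, and the sign was the same for 44 of the 47 genes. For 1 of the genes called in C rats alone, Cyp2t1, the C difference of 1 stood beside an OH difference of -0.07 ± 0.27, and the test of the difference between these gave -1.07 ± 0.38 (adjusted p = 0.84 by limma).

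**Figure D3:**
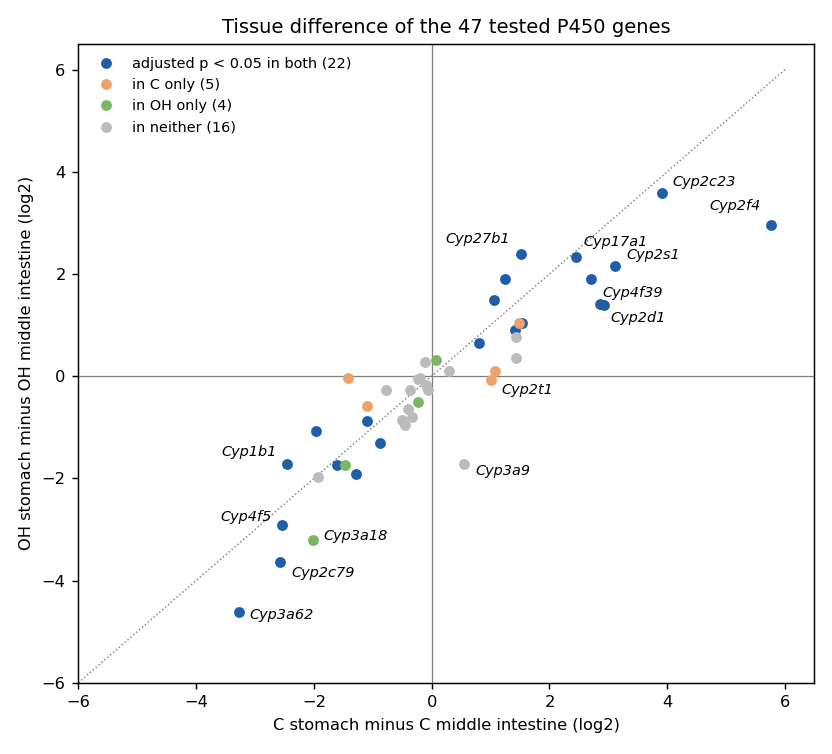
Difference of the log2 ratio between stomach and middle intestine in C rats (x axis) and in OH rats (y axis) for the 47 tested P450 genes, each point 1 gene, coloured by the contrasts in which adjusted p was under 0.05. The dotted line marks equal differences, and of the 47 points 22 are blue, called in both treatments on the same side of 0, and Cyp2f4 lies at 5.77 and 2.96.

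In C rats the called genes of a cluster had 1 direction in some clusters and both in others. On chromosome 1 of rn4, the build of the array design, 12 P450 probes lie between 81008468 and 82233110. Of these Cyp2s1, Cyp2b12, Cyp2f4 and Cyp2t1 were higher in C stomach, where 22.7% of all probes were, 4 were not called and 4 did not enter the test. The direction of this cluster was mixed in OH rats. Cyp2s1, Cyp2b12 and Cyp2f4 were again higher in stomach and Cyp2t1 was not called. Cyp2b3 and Cyp2b2 were lower in OH stomach, at differences of -0.51 and -1.73 (adjusted p = 0.012 and 0.031 by limma). On chromosome 5 (135496568 to 135922305) the 3 tested genes of 6, Cyp4a8, Cyp4a1 and Cyp4b1, were higher in C middle intestine, where 22.3% of all probes were. Directions were mixed on chromosome 7. There 5 CYP2D probes lie within 55 kb (120743218 to 120798665), with Cyp2d5 and Cyp2d1 higher in C stomach between Cyp2d4 and Cyp2d2, which were higher in C middle intestine. The 7 CYP4F probes at 13072439 to 13609164 of the same chromosome held Cyp4f39 and Cyp4f17 higher in C stomach and the next probe, Cyp4f5, higher in C middle intestine. A position was given by the design for 71 of the 79 genes.

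The question of the study was the effect of obestatin. In stomach, none of the 47 P450 genes differed between OH and C by limma at an adjusted p under 0.05 (the smallest was 0.25), and of all probes 0% did. At an unadjusted p under 0.05 there were 8 P450 genes or 17%, against 10.6% of all probes, and by Tukey HSD, the test of the study's methods, 3 or 6.38%, against 3.35%. Those 3 were Cyp1b1, Cyp2f4 and Cyp2t1. The Tukey p was not adjusted over the probes, so this limit is not that of limma. Of the 8 genes 7 were lower in OH stomach and 1, Cyp1b1, was higher. Both Cyp2d1 and Cyp2d5, whose probes may read the same RNA, are among the 7. Over the 47 genes 32 were lower and 15 higher, with a median difference of -0.25 and a median size of 0.49, where all probes had 0.01 and 0.17. The arrays of the groups did not overlap for 5 P450 genes, Cyp1b1, Cyp2b2, Cyp2d1, Cyp2d5 and Cyp2s1, and for 7.6% of all probes.

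Cyp2f4 carried the largest stomach difference. Against 1.89, -1.64, 1.89 and 1.56 in C stomach stood -3.29, -1.37, -1.96 and -0.54 in OH stomach, a difference of -2.71 ± 0.68 (unadjusted p = 0.0013, adjusted p = 0.25 by limma). C stomach replicate 2 lay inside the OH range, and without it the difference was -3.57 and passed the threshold (adjusted p = 0.00053). In the tissue channel alone, scaled to the 75th percentile of each array, Cyp2f4 differed by -2.8 and in the reference channel by -0.07.

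The same array divided 2 further genes. Cyp3a9 read 2.93, 2.85 and 2.96 on 3 C stomach arrays, -0.52 on replicate 2 and -0.22, 0.97, 0.12 and 0.93 in OH stomach, with a difference of -1.61 ± 0.74 (adjusted p = 0.47 by limma) that became -2.46 without replicate 2 (adjusted p = 0.031). Cyp2t1 read 1.9, 0.52, 1.43 and 1.39 in C stomach and -0.03, 0.77, 0.3 and 0.14 in OH stomach, with -1.01 ± 0.27 (adjusted p = 0.26) and -1.28 without replicate 2 (adjusted p = 0.0095). Without this array 3 P450 genes passed in stomach, Cyp2f4, Cyp3a9 and Cyp2t1. The share of all probes that passed without it is not given here. The array was singled out from these same data. For these 3 genes it lay within or below the OH range, so leaving it out widens their differences. Leaving out any other stomach array left no P450 gene past the threshold.

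The striated muscle genes and the forestomach genes were also lowest within C stomach on replicate 2. Within OH stomach, replicate 1 had the lowest value of Cyp2f4, Cyp3a9 and Cyp2t1. It also had the lowest forestomach mean and one of the higher muscle means. The mean ratio of the 15 striated muscle genes was 3.79, -0.88, 3.41 and 4.12 in C stomach and 0.84, -0.19, -0.28 and 0.91 in OH stomach. The mean of the forestomach genes was 1.06, 0.21, 1.81 and 1.33 in C stomach and 0.23, 1.07, 0.27 and 0.38 in OH stomach. Of the 15 striated muscle genes 10 were above background on all C stomach arrays and 11 on all OH stomach arrays, and none was called between OH and C. The part of these lists in the difference of Cyp2f4, Cyp3a9 and Cyp2t1 was not tested.

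**Figure D4:**
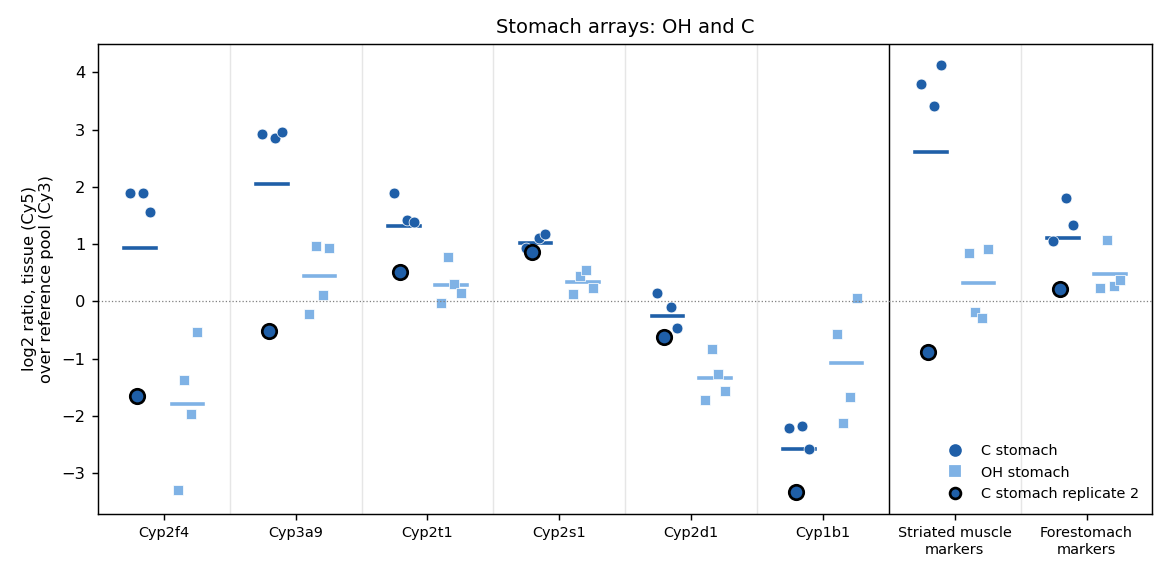
Log2 ratio of tissue (Cy5) to reference pool (Cy3) on the 8 stomach arrays for 6 P450 genes and for the mean of 2 marker lists. Points are arrays, horizontal marks are group means, and the ringed point is C stomach replicate 2. For Cyp2f4, Cyp3a9 and the striated muscle markers the ringed point, at -1.64, -0.52 and -0.88, lies with or below the OH arrays, and for Cyp2s1 it lies with the other C arrays at 0.86.

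Other stomach differences did not rest on that array. Cyp2s1 was 0.94, 0.86, 1.1 and 1.18 in C stomach and 0.13, 0.45, 0.55 and 0.23 in OH stomach, without overlap, a difference of -0.68 ± 0.22 (unadjusted p = 0.0084, adjusted p = 0.33 by limma). Cyp2d1 fell outside the C range in all OH arrays, at -1.71, -0.82, -1.26 and -1.57, with -1.08 ± 0.42 (adjusted p = 0.41). Cyp1b1 was the gene that stood higher in OH stomach, at -0.56, -2.12, -1.67 and 0.06 against -2.21, -3.33, -2.18 and -2.58 in C stomach, with 1.5 ± 0.44 (adjusted p = 0.31). Its 2 highest OH arrays, replicates 1 and 4, were also those with the highest mean of the smooth muscle genes, 0.93 and 0.16 against -1.39 and -2.76 on replicates 2 and 3, and the part of that tissue in Cyp1b1 was not tested.

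In middle intestine no P450 gene passed either by limma (smallest adjusted p = 0.32), where 0.368% of all probes did. At an unadjusted p under 0.05 there were 3 P450 genes or 6.38%, against 10.5% of all probes, and by Tukey HSD there were 0 of 47, against 4.42%. The arrays of the groups did not overlap for 2 P450 genes, Cyp2b12 and Cyp4f18, and for 5.86% of all probes. The median difference was 0.01 and the median size 0.18 over the 47 genes, against 0 and 0.16 over all probes. Cyp2a1, a testosterone 7α-hydroxylase, read -2.91, -2.38, -2.9 and -3.45 in C and -3.52, -3.35, -3.28 and -3.59 in OH middle intestine, a difference of -0.53 ± 0.20 (adjusted p = 0.32). It was above background on 2 of 4 arrays in each of these groups. Its probe shares 44 of 50 overlapping bases with that of Cyp2a2. The 4 next genes by p were Cyp2w1 at 0.67 ± 0.28, Cyp2j10 at -0.71 ± 0.32, Cyp2b12 at -0.73 ± 0.39 and Cyp2d2 at 0.57 ± 0.32, with adjusted p from 0.41 to 0.59. Cyp2j10 and Cyp2b12 were above background on 1 of 4 and 0 of 4 arrays of C middle intestine and on no array of OH middle intestine, so their differences there are between signals near background. The sign turned for Cyp2w1 when Cy5 was used without the reference and for Cyp2d2 after scaling between arrays.

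The difference of the obestatin response between the tissues was called for 0 of the 47 P450 genes and 0% of all probes by limma (smallest adjusted p = 0.83 among the P450 genes), a contrast for which Tukey HSD was not run. At an unadjusted p under 0.05 there were 6 P450 genes or 12.8%, against 5.85% of all probes, with Cyp2d1 and Cyp2d5 both counted. For Cyp2f4, with -2.71 in stomach and 0.1 in middle intestine, the difference was -2.81 ± 0.97 (adjusted p = 0.83), and without C stomach replicate 2 it passed (-3.67, adjusted p = 0.011).

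The intestinal arrays differed among themselves by more than by treatment for several P450 genes, which were chosen for mention after their values were seen. Cyp4f1 ranged from -3.91 to 0.76 in C and from -3.77 to 2.2 in OH middle intestine, with the top value on C replicate 3 and OH replicate 2. The same 2 arrays held the highest value of their group for 12 of the 47 P450 genes or 25.5%, and for 14.1% of all probes. Among the 12 were Cyp17a1 at 1.28 and 1.33, where the other intestinal arrays lay between -1.61 and -0.59, and Cyp2d4 at 0.45 and 1.14. The mean of the enterocyte genes was also highest on these arrays, 0.43 and 1.29, against -0.22 to 0.1 on the other C and -0.41 to 0.62 on the other OH arrays, and its part in the P450 values was not tested.

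A set of P450 genes was abundant in the reference pool and low in both tissues. The mean ratio was under -2 in all 4 groups for 10 of the 79 P450 genes or 12.7%, and for 1.18% of all genes with a symbol. Cyp4a3, a fatty acid ω-hydroxylase, lay between -9.27 and -6.18 on the 16 arrays and was above background in Cy3 on all 16 and in Cy5 on 3. Cyp3a2 and Cyp3a23/3a1, the male-specific and the steroid-inducible CYP3A form of the rat liver, lay between -8.06 and -5.9 and between -7.07 and -5.37. In C stomach the pool signal was at least 266-fold above that of the tissue for Cyp4a3, at least 143-fold for Cyp3a2 and at least 67.4-fold for Cyp3a23/3a1. Cyp4f4 and the pseudogene Cyp3a85-ps were above background in the pool on all 16 arrays and in neither tissue, as was Cyp2a2, and the remaining 5 genes under -2 were Cyp2d2, Cyp2e1, Cyp2a1, Cyp8b1 and Cyp2b3.

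Above background in Cy3 on all 16 arrays and in Cy5 on none were 4 P450 genes or 5.06%, and 48 of the 19776 genes or 0.243%. The mean ratio of 12 hepatocyte genes lay between -3.72 and -3.29 on every array. Of these 11 were above background in the pool on all 16 arrays, but unlike the 4 P450 genes 10 or 11 were also above background in Cy5 on the 4 arrays of each group. The mean ratio of Ahsg was -0.25 to -0.02 by group, Tat was above background in the pool on 1 array, and albumin (Alb) had a mean ratio of -5.93 in C stomach and -6.91 in C middle intestine. The labels name no other tissue in the pool, and what the pool held beside stomach and intestine was not tested.

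**Figure D5:**
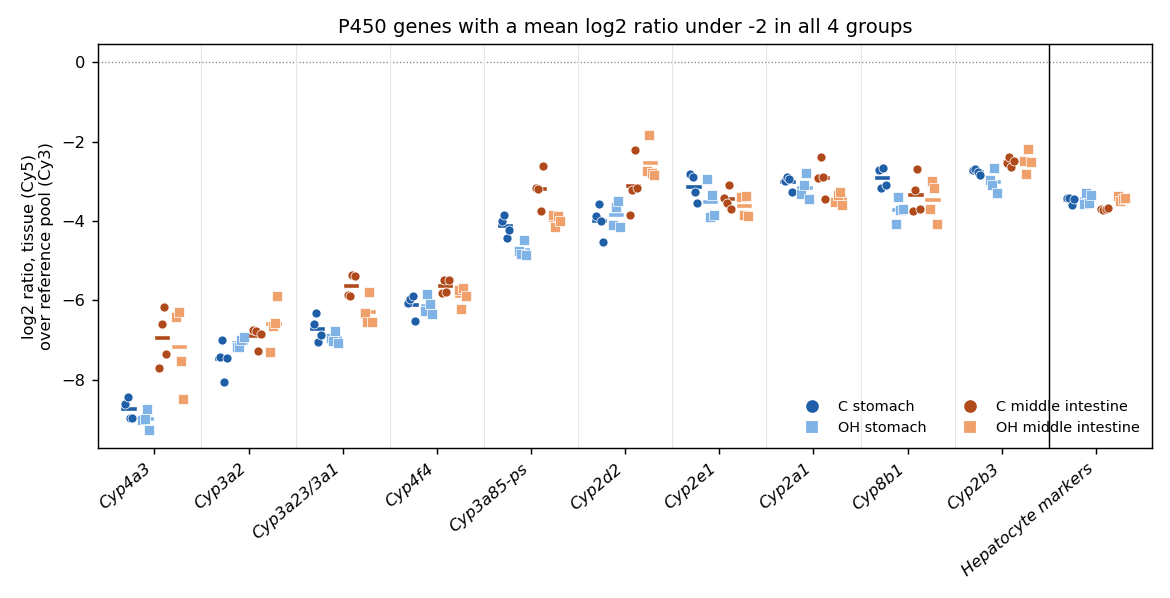
Log2 ratio of tissue (Cy5) to reference pool (Cy3) on each array for the 10 P450 genes whose mean ratio was under -2 in all 4 groups, and for the mean of 12 hepatocyte markers. Points are arrays and horizontal marks are group means, and Cy5 values near background are the scanner software's surrogate values. All points lie below 0, Cyp4a3 reaches -9.27, and the hepatocyte mean lies between -3.72 and -3.29.

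All 7 genes of electron donors and partners of P450 enzymes were tested, and 3 were called between the tissues in C rats, beside 44.9% of all probes. Cyb5a, the cytochrome b5 that speeds some P450 reactions, and the haem-binding partner Pgrmc1 were higher in C stomach, by 0.55 (adjusted p = 0.024 by limma) and 0.62 (adjusted p = 0.0016). Fdxr, the reductase of the mitochondrial chain, was lower by 0.55 on the log2 scale (adjusted p = 0.007). The reductase gene Por differed by 0.21 (adjusted p = 0.41). Of 3 genes of haem supply, Alas1, the first enzyme of haem synthesis, was higher in C stomach by 0.77 (adjusted p = 0.0026).

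Of 15 tested receptors and factors that control P450 genes 9 were higher in C middle intestine, where 22.3% of all probes were. Higher in C stomach were 2, where 22.7% of all probes were. The nuclear receptor Nr5a2 differed by -4.28 (adjusted p = 1.1e-09 by limma), the oxysterol receptor Nr1h3 by -2.03, the bile acid receptor Nr1h4 by -1.58, the xenobiotic receptors Nr1i2 and Nr1i3 by -0.82 and -1.79, and Ahrr, the repressor of the aryl hydrocarbon receptor, by -1.64 (adjusted p = 0.00047). Nr0b2, a repressor that bile acids induce, was higher in C stomach by 2.97 (adjusted p = 2e-06). Arnt, above background on 0 arrays of C middle intestine, was higher in C stomach by 2.31 (adjusted p = 0.00076). In OH rats its difference was 0.53 and was not called (adjusted p = 0.38). The aryl hydrocarbon receptor gene Ahr differed by 0.25 (adjusted p = 0.44). None of the 25 tested partner and regulator genes was called between OH and C in either tissue, by limma. Of all probes 0% were called in stomach and 0.368% in middle intestine.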

How the data were processed

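Stomach and middle intestine of C and OH rats were measured on 16 Agilent arrays with 62976 spots, a Cy5 tissue sample and a Cy3 common pool. Per the file headers, the deposited intensity values (processed Cy5 and Cy3 signals) came from Agilent Feature Extraction 10.10.1.1, which had subtracted background and normalized the dyes, while the submitters' processing notes name 10.7.3.1. The deposited log10 ratios of the authors' value table were used as an alternative. From these, log2(Cy5/Cy3) was computed without control spots and spots marked as outliers, and spots of a probe were averaged (30367 probes). The 21174 kept probes were above background in Cy5 on the 4 arrays of at least 1 group and had 3 values or more per group.

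All groups were fitted together in limma 3.58.1 (R 4.3.3, data.table version 1.17.8), without a slide term, since slide and group cannot be told apart. A call is a Benjamini-Hochberg adjusted p under 0.05 over the 21174 probes, by limma in each sentence that names no other test. A call by Tukey HSD needed such an adjusted p in the ANOVA over the 4 groups, which also takes in the tissue difference. It further needed a Tukey p under 0.05, not adjusted over the probes. The scripts were tested on simulated data. With 4 arrays per group, their number limits the precision.

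Named genes were the 8 with the largest tissue difference in each direction in C rats among called genes without overlap, the 5 with the smallest p for treatment in each tissue, and every tested gene of the vitamin D, retinoic acid, steroid and bile acid roles and of subfamilies 1a, 1b, 2e and 3a. The members and lists were chosen with earlier results of these data known. Sequences came from RefSeq (GRCr8) and the array design, and 65 members matched RefSeq by accession. Alternatives were normexp (offset 50) with loess, scaling between arrays, Cy5 alone minus its 75th percentile, no filter, outlier spots kept, array weights, the arrays compared only, other probe and detection rules, the replicate block, Tukey HSD and leaving out each array.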

Additional observations from a re-analysis of the deposited data

Results flagged for a closer look

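Of 128 sets of 4 arrays over the 32 named genes, 8 held an array whose gap to its nearest neighbour exceeded Dixon's critical share of the range of the group, and chance gives about 1 in 20 such sets. Replicate 2 of C stomach was the low array for Cyp2f4 (-1.64), Cyp3a62 (-3.45) and Cyp3a9 (-0.52). Replicate 2 of OH middle intestine was the high array for Cyp17a1 (1.33) and Cyp2d2 (-1.82). Replicate 3 of OH stomach was high for Cyp27a1 (1.02) and low for Cyp26b1 (-2.19). Replicate 3 of OH middle intestine was high for Cyp2b12 (-0.23), a gene not above background there.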

How the results depend on the processing

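The number of P450 genes called between the tissues in C rats stayed within 1.5 times 27 under each alternative, at 21 to 26 when 1 array was left out. The part higher in middle intestine (11) was 6 without C stomach replicate 1 or by Tukey HSD and 7 without C middle intestine replicate 3. The part higher in stomach (16) was 12 with normexp and 14 by Tukey HSD. In OH rats the number called was 16 after scaling between arrays, against 26, and 21 to 26 when 1 array was left out. Between OH and C stomach the count of 0 became 1 without the filter (Cyp24a1), 5 with array weights and 3 by Tukey HSD, and ran from 0 to 3 when 1 array was left out. In middle intestine the 0 became 2 with Cy5 alone and 1 without the filter (Cyp3a85-ps) and was 0 without any 1 array. The count for the difference of the response between tissues ran from 0 to 1. Signs turned for the following differences. In C rats Cyp2e1 became -0.06 with normexp and -1.38 after scaling, and Cyp26b1 became 0.09 with array weights (-0.63 to 0.11 when 1 array was left out). In OH rats Cyp2e1 became -0.14 with normexp, -0.05 with Cy5 alone and -0.04 with array weights (-0.09 to 0.24 when 1 array was left out), Cyp21a1 became 0.03 with Cy5 alone (-0.12 to 0.04) and Cyp11b3 ran from -0.21 to 0.1. Between OH and C middle intestine Cyp2w1 became -0.3 with Cy5 alone and Cyp2d2 -0.2 after scaling. The cause was not tested.

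Whether equal replicate numbers mark pairs is not known: samples with the same number deviated together (r over 0.1) in 3 of 4 pairs between the tissues of C rats, 2 in OH rats, and 2 and 1 between treatments in stomach and intestine. With the replicate block, 27 and 28 P450 genes were called between the tissues in C and OH rats, and 0 in each treatment contrast and for the difference between them. The 32 members not tested were not above background on the 4 arrays of any group, although single arrays measured some of them, such as Cyp1a1.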
